A study of Mus musculus with 4 samples.

Results

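The genes described here are 39 interferon-stimulated genes, measured by RNA sequencing in mouse T helper cells with and without Bfar, which encodes an ubiquitin ligase of the endoplasmic reticulum. They were chosen by name, as effectors of type I and type II interferon, and all 39 were among the 17478 genes listed in at least 1 library. The set holds 9 GTPases, 4 guanylate-binding proteins (GBPs) and 5 immunity-related GTPases (IRGs), and 30 other genes. Of the other genes, 6 sense foreign nucleic acid or edit RNA, and 11 are antiviral effectors. The rest are 2 genes of the ISG15 system, 4 PARP and DTX3L genes and 7 further induced genes.

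Interferons bind receptors that activate the Janus kinases and through them the STAT transcription factors. Type I interferon acts mainly through a complex that holds STAT2 and IRF9 and binds the interferon-stimulated response element, while type II interferon, interferon gamma, acts mainly through the gamma-activated sequence. The induced proteins detect or destroy viral nucleic acid, attack the vacuoles in which bacteria and parasites live, or feed back on the pathway. T cells both secrete interferon gamma and respond to interferons.

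All libraries came from CD4+ T cells of C57BL/6 mice aged 6 to 8 weeks. Naive cells (CD4+, CD44lo, CD62Lhi) were sorted from spleen and lymph nodes, activated with antibodies to CD3 and CD28, and kept for 3 days in conditions that direct them to Th9 cells, the helper cells that make interleukin 9. There were 2 libraries of wild-type cells and 2 of cells labelled BFAR-/-, which the growth protocol describes as coming from mice with a conditional deficiency in T cells. The sources used here do not give the promoter that drives the deletion, the deleted exons or the cytokines of the Th9 condition. No interferon treatment is named for either genotype. Since the labels do not say that the 2 libraries of a genotype came from separate mice or cultures, the p-values below cover no more than the spread among the 4 libraries, and that spread may be technical.

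The libraries held 19058009 to 19782923 expected counts each, so 3 counts correspond to 0.152 to 0.157 CPM, the count scaled to library size. Bfar, the deleted gene, was at 36.4 and 32.9 CPM in wild-type cells and at 8.45 and 7.79 CPM in knockout cells, as both knockout labels say (log2 fold change -2.09 ± 0.09, SE, edgeR adjusted p = 5.38e-10). Of 12677 genes tested, 3398 changed at an adjusted p of 0.05, 1728 upward and 1670 downward, with a median fold of 1.2 among those called. The number called fell to 2139 without wild-type library 1, 2355 without wild-type library 2, 1894 without knockout library 1 and 1441 without knockout library 2. The 8 CD4 T cell markers summed to between 5092 and 5688 CPM per library, and 5 of them rose and 1 fell in the knockout.

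The promoters of the 4 GBP genes, of Igtp and of Isg15 are shown because the values below contrast the GBP genes with Igtp, an abundant IRG gene, and because Isg15 is the classical target of type I interferon. Each window runs from 250 bases before to 50 bases after the annotated start and was taken from RefSeq on build GRCm38.p6. Capitals mark letters that match the interferon-stimulated response element, searched as GAAA, any 2 bases and GAAA again, or the gamma-activated sequence, searched as TTCNNNGAA, both on either strand. Overlapping matches appear as 1 run of capitals.
Gbp2 promoter, chr3:142620413-142620712, plus strand: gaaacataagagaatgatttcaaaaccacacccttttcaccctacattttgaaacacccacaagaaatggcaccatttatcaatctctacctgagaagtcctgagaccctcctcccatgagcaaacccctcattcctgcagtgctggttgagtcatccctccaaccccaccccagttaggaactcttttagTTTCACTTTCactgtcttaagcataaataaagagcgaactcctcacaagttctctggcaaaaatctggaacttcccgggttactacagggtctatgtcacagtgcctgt
Gbp3 promoter, chr3:142559794-142560093, plus strand: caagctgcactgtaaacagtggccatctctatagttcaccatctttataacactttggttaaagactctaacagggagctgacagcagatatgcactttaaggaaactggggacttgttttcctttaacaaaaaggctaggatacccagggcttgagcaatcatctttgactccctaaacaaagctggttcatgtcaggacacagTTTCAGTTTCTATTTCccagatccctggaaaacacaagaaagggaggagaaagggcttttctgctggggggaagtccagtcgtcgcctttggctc
Gbp5 promoter, chr3:142496684-142496983, plus strand: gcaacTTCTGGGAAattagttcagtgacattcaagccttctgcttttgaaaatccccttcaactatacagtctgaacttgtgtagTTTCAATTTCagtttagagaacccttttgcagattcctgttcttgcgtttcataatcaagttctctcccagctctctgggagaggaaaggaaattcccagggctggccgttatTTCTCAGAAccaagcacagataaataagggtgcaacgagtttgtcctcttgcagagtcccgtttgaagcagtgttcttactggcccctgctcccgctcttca
Gbp7 promoter, chr3:142530086-142530385, plus strand: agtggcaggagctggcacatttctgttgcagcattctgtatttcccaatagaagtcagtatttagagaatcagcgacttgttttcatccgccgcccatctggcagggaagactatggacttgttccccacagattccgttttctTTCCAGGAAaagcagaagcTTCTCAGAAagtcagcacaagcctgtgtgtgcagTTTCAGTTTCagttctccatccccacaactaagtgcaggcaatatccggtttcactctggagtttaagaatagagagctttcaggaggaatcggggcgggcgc
Igtp promoter, chr11:58199306-58199605, plus strand: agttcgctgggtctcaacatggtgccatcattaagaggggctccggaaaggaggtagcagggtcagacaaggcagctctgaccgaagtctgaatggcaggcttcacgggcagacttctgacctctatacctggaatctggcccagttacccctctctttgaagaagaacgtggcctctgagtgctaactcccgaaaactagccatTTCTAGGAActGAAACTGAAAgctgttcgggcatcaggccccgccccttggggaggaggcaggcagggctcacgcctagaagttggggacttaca
Isg15 promoter, chr4:156200769-156201068, minus strand: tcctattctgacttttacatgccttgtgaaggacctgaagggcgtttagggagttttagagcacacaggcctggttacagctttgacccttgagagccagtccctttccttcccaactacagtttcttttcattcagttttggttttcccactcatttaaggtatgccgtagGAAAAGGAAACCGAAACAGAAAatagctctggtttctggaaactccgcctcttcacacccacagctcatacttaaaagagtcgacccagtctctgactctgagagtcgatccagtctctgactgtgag
The Gbp2 window holds 1 match to the response element, 59 bases before the start. The Gbp3 window shown holds 2 overlapping matches, 45 and 39 bases before the start. Another Gbp3 window, for a start further along (chr3:142560106-142560405), holds neither motif. Gbp5 has 1 response element at 165 bases and gamma-activated sequences at 245 and 52 bases before the start, and Gbp7 has 1 response element at 53 bases and gamma-activated sequences at 106 and 87 bases. In Igtp a gamma-activated sequence at 45 bases and a response element at 34 bases lie next to each other. Isg15 has 3 overlapping response elements between 78 and 66 bases before the start.

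Windows were available for 30 of the 39 genes, and a gene was counted if any of its windows held a match. The response element was found in 15 of these 30 genes and in 15 of their 37 windows (40.5%), against 3.44% of the 32851 windows of the RefSeq table. The gamma-activated sequence was found in 29.7% of the 37 windows and in 8.3% of the table. Among GTPase genes 7 of 8 had the response element, including 4 of 4 GBP genes and 3 of 4 IRG genes, and among the other members 8 of 22 had it. Ifi47, an IRG gene, had neither motif in its window. The response element was present in 5 of 8 members that rose in the knockout and in 8 of 14 that were tested and not called, so its presence did not separate these groups of genes. A match is a run of letters and not a measured binding site.

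The members differed far more from each other in level than between genotypes. Levels between genes were compared in FPKM, which is scaled for transcript length. Ifi47 and Igtp, both IRG GTPases, stood highest, with mean FPKM values of 41.1 and 40.4. Samhd1, which destroys deoxynucleotides needed for reverse transcription, followed at a mean FPKM of 35.5. Ifi47 and Igtp overlapped in their FPKM ranges over the 4 libraries and did not differ beyond their spread. A mean of at least 10 FPKM was reached by 13 members, and 15 had a mean below 1 FPKM. The second group held genes often used to report type I interferon: Ifit1 had a mean of 0.312 FPKM, and Rsad2, which encodes viperin, had 1 count in knockout library 1 and none in the other libraries. Fewer than 10 counts in every library were found for 8 members, and together these summed to between 0.38 and 0.49 FPKM.

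**Figure D1:**
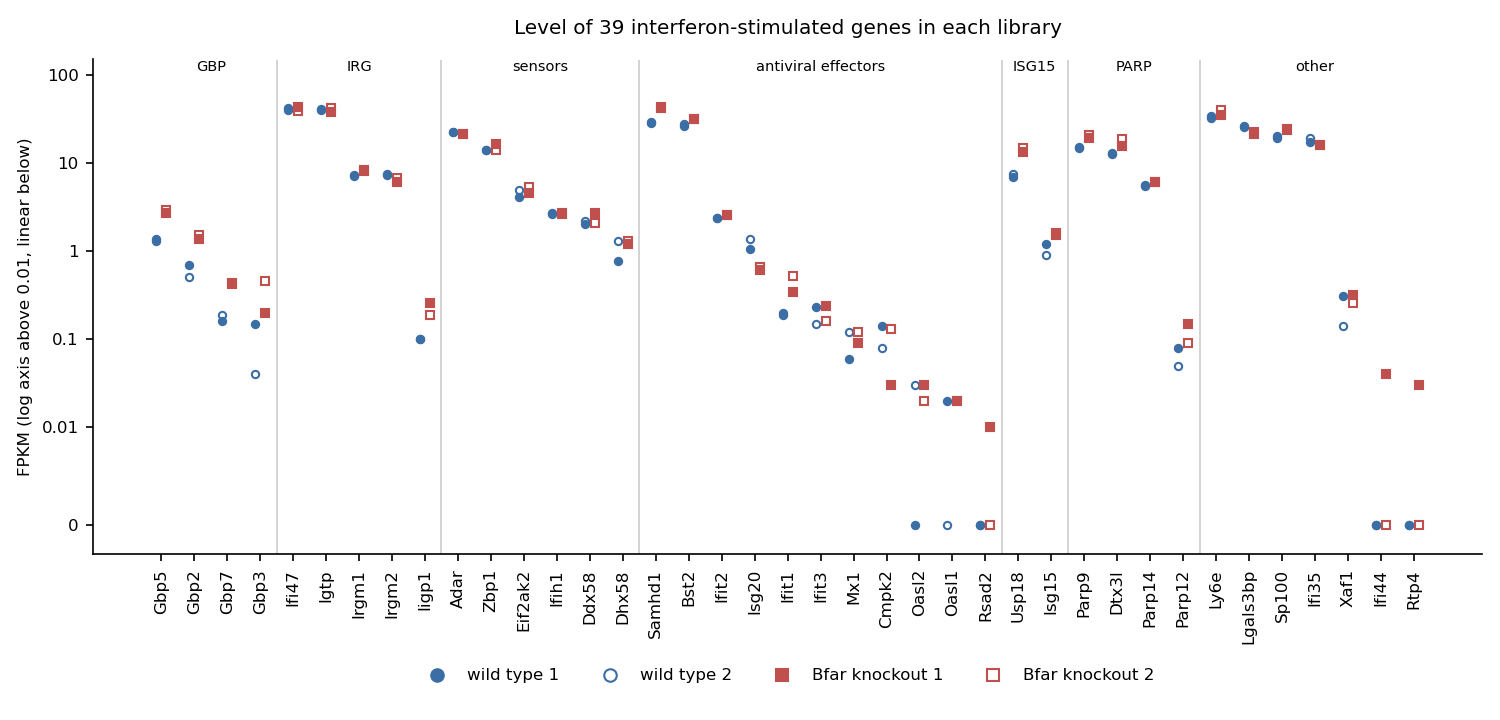
FPKM of the 39 interferon-stimulated genes in each of the 4 libraries, on an axis that is logarithmic above 0.01 and linear below, grouped by role and ordered by mean FPKM within each group, with circles for wild-type and squares for knockout libraries. The genes run from Ifi47 at a mean of 41.1 FPKM down to Rsad2, which had 1 count in all, and for most genes the 4 points lie close together compared with the distance between genes.

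Summed over the 39 members, expression was 344.8 and 345.0 FPKM in the wild-type libraries and 380.5 and 390.1 FPKM in the knockout libraries, a ratio of 1.12. Both knockout libraries thus lay above both wild-type libraries. After a filter on low counts 30 members were tested and 9 were not (Ifit3, Oasl1, Oasl2, Mx1, Rsad2, Cmpk2, Parp12, Rtp4 and Ifi44). In the knockout 11 members rose (Gbp2, Gbp3, Gbp5, Gbp7, Samhd1, Bst2, Usp18, Parp9, Dtx3l, Sp100 and Ly6e), 1 fell (Lgals3bp) and 18 were not called by edgeR. Over all tested genes 13.6% were called higher and 13.2% lower, 26.8% in all. DESeq2 called 8 members higher and 1 lower, where it called 7.27% of all genes higher. The median log2 fold change was 0.21 over the 30 tested members, with a range of -0.94 to 1.75, and -0.00 over all tested genes. The median absolute log2 fold change was 0.26 in tested members and 0.14 in all tested genes. The genotypes did not overlap in CPM in 23 of the 30 tested members, against 63.5% of all tested genes, and 18 of the 30 were higher in both knockout libraries, against 31.6% of all tested genes. Gbp3, Iigp1, Ifit1 and Xaf1 passed the filter on low counts only through the knockout libraries, so counts and medians over the tested members describe them and support nothing further. Without these 4 genes 10 of 26 members rose, 1 fell, and the median was 0.18. In bulk RNA, a change in the number of expressing cells and a change in RNA per cell cannot be told apart.

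**Figure D2:**
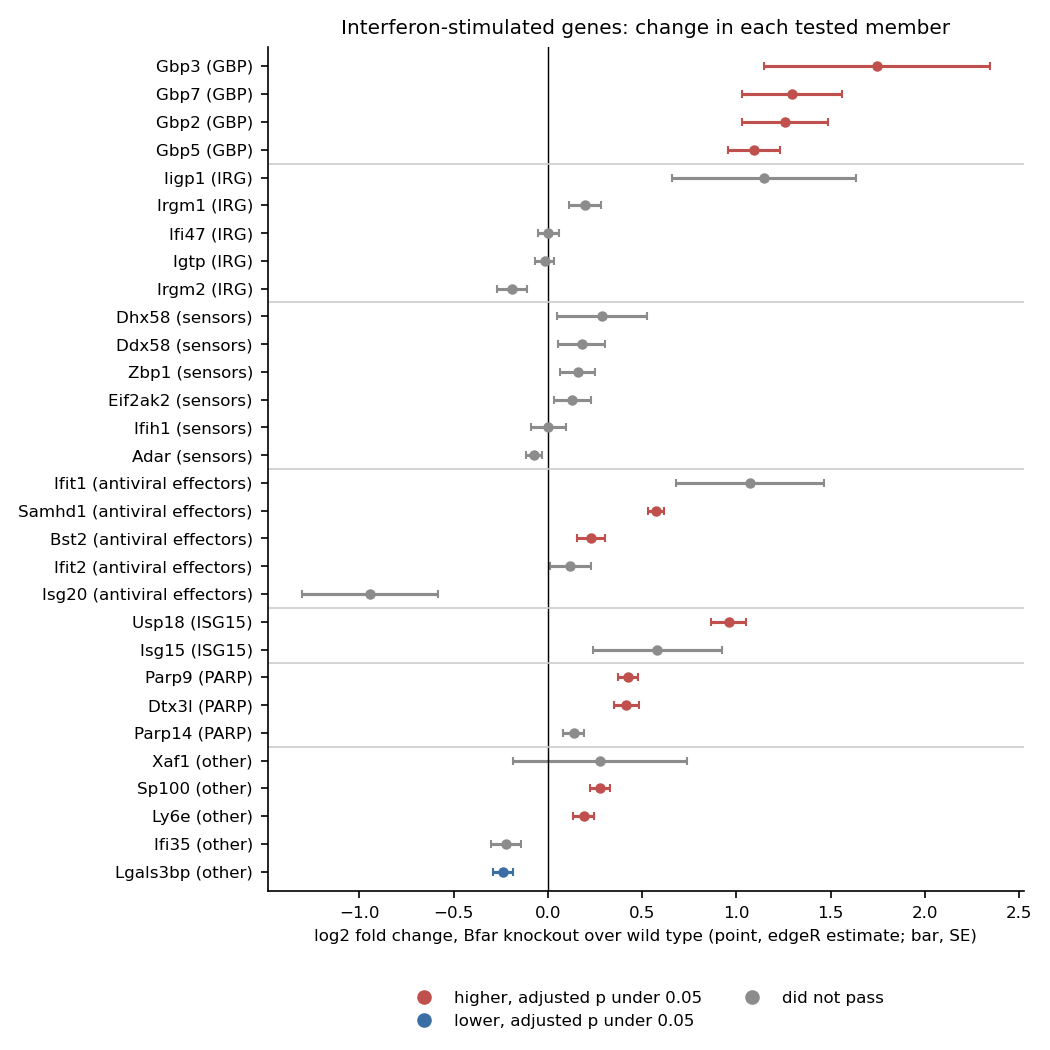
Log2 fold change, Bfar knockout over wild type, with its standard error for each of the 30 tested members, grouped by role, from edgeR with 2 libraries per genotype. The 4 GBP genes lie between 1.10 and 1.75, and the 5 IRG genes lie between -0.19 and 1.15 with none called. Lgals3bp at -0.24 is the called gene below 0. Gbp3, Iigp1, Ifit1 and Xaf1 passed the filter on low counts only through the knockout libraries.

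All 4 GBP members rose, where 13.6% of all tested genes were called higher. Gbp3 passed the filter on low counts only through the knockout libraries. GBPs are large GTPases that coat and disrupt the vacuoles and membranes of intracellular pathogens and help to trigger inflammasomes. The 4 genes lie together on chromosome 3, in the order Gbp5 (142496934 to 142522344, GRCm38), Gbp7 (142530336 to 142550151), Gbp3 (142560016 to 142573213) and Gbp2 (142620663 to 142638008). Their summed level was low, at 2.39 and 2.03 FPKM in the wild-type libraries and 4.72 and 5.37 FPKM in the knockout libraries, a ratio of 2.28.

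Gbp5, which promotes inflammasome assembly, had 4.19 and 3.90 CPM in the wild-type libraries and 8.29 and 9.0 CPM in the knockout libraries. Gbp2, which is recruited to parasite vacuoles, had 1.72 and 1.27 CPM against 3.37 and 3.79 CPM. Gbp7 had 0.908 and 1.06 CPM against 2.49 and 2.37 CPM. In all 3 genes both knockout libraries were higher than both wild-type libraries, and the distance between the genotypes exceeded the spread within them. The log2 fold changes were 1.10 ± 0.14 (SE) for Gbp5, 1.26 ± 0.23 for Gbp2 and 1.30 ± 0.26 for Gbp7, with edgeR adjusted p-values of 4.31e-05, 0.000832 and 0.00209. Each of these calls held in the 10 alternative settings tried, with a highest adjusted p of 0.0115 for Gbp5, 0.0387 for Gbp2 and 0.0366 for Gbp7.

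Gbp3 was the faintest of the 4 at a mean of 0.212 FPKM, with 7.98, 2, 10 and 23.05 expected counts in wild-type libraries 1 and 2 and knockout libraries 1 and 2. In CPM these were 0.404, 0.101, 0.518 and 1.21. Because Gbp3 passed the filter only through the knockout libraries, its call supports nothing further. The groups did not overlap, but wild-type library 1 and knockout library 1 lay close together. The log2 fold change was 1.75 ± 0.60 (edgeR adjusted p = 0.0427). The call was lost without wild-type library 2 (adjusted p = 0.303), without knockout library 1 (0.0569) and without knockout library 2 (0.431), with no filter on low counts (0.19) and in limma on log2(FPKM + 0.1) (0.115) and log2(FPKM + 1) (0.141), and DESeq2 gave no adjusted p.

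None of the 5 IRG members was called by edgeR, DESeq2 or limma, although Irgm1, Irgm2 and Iigp1 had unadjusted edgeR p-values below 0.05. Of these, Iigp1 passed the filter on low counts only through the knockout libraries. Since 26.8% of all tested genes were called, the absence of calls among 5 genes does not set the IRG members apart. IRGs also act on pathogen vacuoles: Igtp, Irgm1 and Irgm2 are regulators that protect the cell's own membranes, and Iigp1 and Ifi47 belong to the effector class. Their summed level was 98.0 and 95.0 FPKM in the wild-type libraries and 96.5 and 95.6 FPKM in the knockout libraries, which overlapped.

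Ifi47 (chromosome 11, 49076587 to 49096987) had 73.2 and 70.1 CPM in the wild-type libraries and 75.7 and 67.8 CPM in the knockout libraries. Igtp (chromosome 11, 58199556 to 58207592) had 84.6 and 83.1 CPM against 79.5 and 86.3 CPM. In both genes the groups overlapped, and the log2 fold changes were 0.00 ± 0.06 (SE, edgeR adjusted p = 0.985) and -0.02 ± 0.05 (adjusted p = 0.84). Without knockout library 1 they were -0.08 for Ifi47 and 0.04 for Igtp, and without wild-type library 2 Ifi47 had -0.03. Irgm1 had 16.3 and 15.9 CPM in the wild-type libraries and 18.1 and 18.7 CPM in the knockout libraries. Irgm2 had 26.3 and 26.1 CPM against 21.8 and 24.2 CPM. The groups did not overlap in either gene, with both knockout libraries above for Irgm1 and below for Irgm2. The log2 fold changes of 0.20 ± 0.09 and -0.19 ± 0.08 did not pass (edgeR adjusted p = 0.102 and 0.0841). Iigp1 had 0.303 and 0.304 CPM in the wild-type libraries and 0.777 and 0.579 CPM in the knockout libraries. Both knockout libraries were higher, and the log2 fold change of 1.15 ± 0.49 also missed the threshold (edgeR adjusted p = 0.0988). Because Iigp1 passed the filter on low counts only through the knockout libraries, its difference supports nothing further. Reads of Igtp and Irgm2 are partly uncertain, since their exons overlap and 15.9% of the 31-base words of Igtp also occur in Irgm2.

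**Figure D3:**
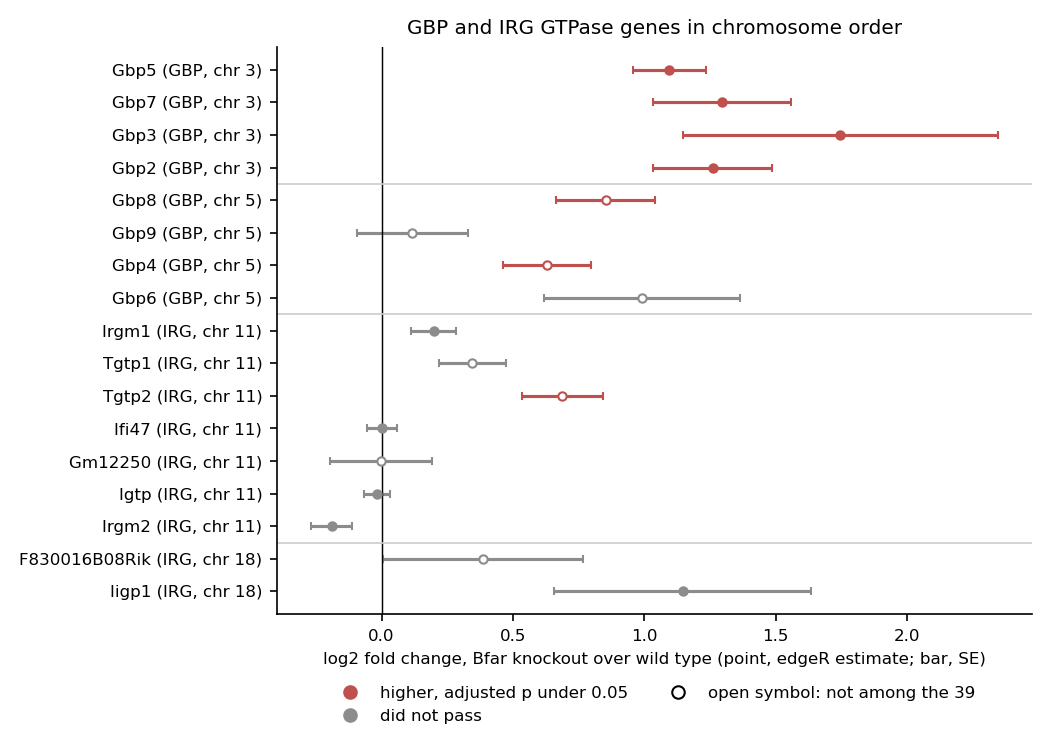
Log2 fold change with its standard error, Bfar knockout over wild type, for the tested GBP and IRG genes, members and relatives, set out by gene family and chromosome. All 4 GBP genes of chromosome 3 lie at or above 1.10 and were called, where 13.6% of all tested genes were called higher. Gbp3 passed the filter on low counts only through the knockout libraries. Gbp9, on chromosome 5, lies at 0.12 and was not called. Of the IRG genes on chromosome 11, Ifi47 and Igtp lie at 0.00 and -0.02, and Tgtp2, which was called, lies at 0.69.

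The relatives of these GTPases that are not members were read in the same way. Of 10 GBP genes listed, 8 were tested and 6 rose, against 13.6% of all tested genes called higher. These 6 include Gbp3, which passed the filter on low counts only through the knockout libraries. Gbp6, tested and not called, had 0.506 CPM in wild-type library 2, below the filter minimum of 0.512 CPM. The count of 6 thus describes these genes and supports nothing further. A second cluster on chromosome 5 held 6 of the 10, of which 4 were tested and 2 rose. Gbp4 rose by 0.63 ± 0.17 on the log2 scale (SE, edgeR adjusted p = 0.0121), and Gbp9 had 0.12 ± 0.21 (adjusted p = 0.729). Exons of Gbp4, Gbp8 and Gbp9 overlap, so the split of reads among these genes is uncertain. Of the 31-base words, 14.0% for Gbp4 and 18.3% for Gbp9 also occur in other listed genes. Gbp8 rose by 0.85 ± 0.19 (adjusted p = 0.00374), but 31.1% of its 31-base words also occur in other listed genes, so part of its reads is uncertain, and the call was lost without knockout library 1 (0.0583) and in DESeq2 (0.0567). Of 10 IRG genes listed, 9 were tested and 1 rose, a share near the 13.6% called higher over all genes. This gene, Tgtp2, rose by 0.69 ± 0.16 (adjusted p = 0.00415). Its adjusted p was 0.0634 without wild-type library 1, 0.0624 without knockout library 1 and 0.0683 without knockout library 2. Tgtp2 shares 89.2% of its 31-base words with Tgtp1, so the split of reads between these genes is uncertain. Tgtp1 itself had 0.35 ± 0.13 (adjusted p = 0.0574).

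Taking the 9 GTPase members as a class, 4 rose, 5 were not called, and the median log2 fold change was 1.10. Of the 30 other members 21 were tested, 7 rose, 1 fell, and the median was 0.19. Over all tested genes 13.6% were called higher and 13.2% lower. The GTPase median rests on Gbp3 and Iigp1, which passed the filter only through the knockout libraries: over the 7 other GTPases it was 0.20, with 3 called higher, and over the 19 other members left without Ifit1 and Xaf1 it was 0.18. In this alternative, chosen after seeing the data, the medians of the classes thus lay close together, while within the 7 GTPases the GBP genes had 1.10 to 1.30 and the IRG genes -0.19 to 0.20. The GTPases summed to 100.4 and 97.1 FPKM in the wild-type libraries and 101.2 and 101.0 FPKM in the knockout libraries, because Ifi47 and Igtp dominate the sum. Without these genes the sums were 17.2 and 16.6 FPKM against 19.2 and 20.7 FPKM. The other members summed to 244.4 and 247.9 FPKM against 279.3 and 289.1 FPKM, and both knockout libraries were higher. On log2(FPKM + 1), where faint genes carry little fold, the GTPase median was 0.17 and the median of the other members 0.12. The difference between the classes was not tested, since the members were chosen with earlier results known.

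All 6 genes that sense foreign nucleic acid or edit RNA were tested. None passed in edgeR, DESeq2 or limma, and none had an unadjusted edgeR p below 0.05. Over all genes 26.8% were called, so the absence of calls among 6 genes does not set them apart. Their log2 fold changes ran from -0.07 to 0.29 with a median of 0.14. These are Ifih1 (MDA5), Ddx58 (RIG-I) and Dhx58 (LGP2), helicases that detect viral RNA; Eif2ak2 (PKR), a kinase that halts translation; Adar, which edits adenosine to inosine in RNA; and Zbp1, which senses Z-form nucleic acid. Adar was the most abundant at a mean of 21.9 FPKM. It measured 133 and 134 CPM in the wild-type libraries and 126 and 129 CPM in the knockout libraries. The groups did not overlap for Adar, and its log2 fold change was -0.07 ± 0.04 (SE, edgeR adjusted p = 0.204). The sign of 3 sensors turned when a library was left out: Ifih1 had -0.02 and Ddx58 -0.01 without knockout library 1, Ifih1 had -0.01 without wild-type library 2, and Dhx58 had -0.05 without wild-type library 1.

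Among the 11 antiviral effectors 5 were tested, and 2 rose, Samhd1 and Bst2, against 13.6% called higher over all genes. The 11 summed to 58.6 and 61.1 FPKM in the wild-type libraries and 77.1 and 78.8 FPKM in the knockout libraries, a ratio of 1.30 carried mainly by Samhd1. Samhd1 (chromosome 2, 157097534 to 157135096), the deoxynucleotide hydrolase, had 111 and 114 CPM in the wild-type libraries and 166 and 170.2 CPM in the knockout libraries. The 2 knockout values lay well above the wild-type values. Its log2 fold change was 0.57 ± 0.04 (SE, edgeR adjusted p = 1.28e-07), the smallest among the 30 tested members, and in the alternatives its value was at most 0.00191.

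Bst2 (tetherin), which holds budding virions at the cell surface, had 22.1 and 23.4 CPM in the wild-type libraries and 26.5 and 26.8 CPM in the knockout libraries. The groups did not overlap, and the log2 fold change was 0.23 ± 0.07 (edgeR adjusted p = 0.0337). The adjusted p was 0.186 without wild-type library 1, 0.0503 without wild-type library 2, 0.13 without knockout library 1, 0.169 without knockout library 2, 0.0758 with no filter and 0.233 in DESeq2. Bst2 is also a marker of plasmacytoid dendritic cells. The 7 markers of those cells, Bst2 included, summed to 37.0 and 40.6 CPM in the wild-type libraries and 44.3 and 45.2 CPM in the knockout libraries. Tcf4, the other abundant one, had 14.2 and 16.7 CPM against 17.1 and 17.7 CPM (log2 fold change 0.17 ± 0.10, adjusted p = 0.2), and its genotypes did not overlap. The part of such cells in the Bst2 values was not tested. The 5 markers other than Bst2 and Tcf4 summed to 0.707 and 0.506 CPM in the wild-type libraries and 0.726 and 0.685 CPM in the knockout libraries, with Siglech, Ly6d and Klk1 at no more than 3 counts in any library.

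The effectors that missed the threshold differed in sign. Ifit1, which binds viral RNA that lacks host cap methylation, had 0.555 and 0.506 CPM in the wild-type libraries and 0.881 and 1.37 CPM in the knockout libraries (log2 fold change 1.07 ± 0.39, edgeR adjusted p = 0.0555). Isg20, an RNA exonuclease, had 1.06 and 1.27 CPM against 0.570 and 0.632 CPM (-0.94 ± 0.36, adjusted p = 0.0655). It passed in limma on log2(FPKM + 0.1), with an adjusted p of 0.0288, and on log2(FPKM + 1), with 0.0261. In both genes the genotypes did not overlap, as was so in 63.5% of all tested genes. Because Ifit1 passed the filter on low counts only through the knockout libraries, its difference supports nothing further. Ifit2, a relative of Ifit1, had 9.44 and 9.46 CPM against 10.3 and 10.2 CPM (0.12 ± 0.11, adjusted p = 0.454). The remaining effectors were too faint to test. Ifit3 also shares 61.8% of its 31-base words with Ifit3b, so its level is uncertain.

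The ISG15 system showed 1 of the larger changes among well-measured members. Usp18 (chromosome 6, 121245906 to 121270917) removes ISG15 from proteins and blocks signalling from the type I interferon receptor. It had 12.4 and 13.3 CPM in the wild-type libraries and 23.7 and 26.3 CPM in the knockout libraries. Its mean went from 12.9 ± 0.634 to 25.01 ± 1.87 CPM (SD, n = 2), and the groups were far apart. The log2 fold change was 0.96 ± 0.09 (SE, edgeR adjusted p = 2.12e-06), with a highest adjusted p of 0.0054 in the alternatives. Isg15, the ubiquitin-like protein itself, was scarce, at 0.908 and 0.658 CPM in the wild-type libraries and 1.19 and 1.16 CPM in the knockout libraries. Both knockout libraries were higher, and its log2 fold change of 0.58 ± 0.34 did not pass (edgeR adjusted p = 0.23).

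Parp9 and Dtx3l, which form a complex of an ADP-ribosyltransferase family protein and a ubiquitin ligase, both rose. They sit head to head on chromosome 16, Dtx3l at 35926515 to 35939027 and Parp9 at 35938470 to 35972621, with 558 bases of overlap on opposite strands. Parp9 had 52.8 and 54.3 CPM in the wild-type libraries and 69.1 and 74.8 CPM in the knockout libraries. Dtx3l had 66.4 and 67.4 CPM against 81.4 and 97.3 CPM. For each gene both knockout libraries were higher, with a wider spread between the knockout libraries in Dtx3l. The log2 fold changes were 0.43 ± 0.05 (SE) and 0.42 ± 0.07, with edgeR adjusted p-values of 3.83e-05 and 0.000295. Reads from the overlap, 8.54% of the 31-base words of Parp9 and 7.52% of those of Dtx3l, cannot be assigned without strand, and the sources used here do not state the strand setting. Parp14, an ADP-ribosyltransferase, had 40.2 and 41.6 CPM against 44.6 and 45.4 CPM. Its groups did not overlap, and its log2 fold change of 0.14 ± 0.06 missed the threshold (edgeR adjusted p = 0.0853). Parp12 had 3 to 10 counts per library and was not tested.

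The 7 further induced genes, 5 of them tested, gave 2 rises and 1 fall, against 13.6% called higher and 13.2% lower over all genes. Sp100, a component of nuclear bodies that restrict DNA viruses, had 50.9 and 47.8 CPM in the wild-type libraries and 59.8 and 59.7 CPM in the knockout libraries. It rose by 0.28 ± 0.05 on the log2 scale (SE, edgeR adjusted p = 0.00133). Ly6e, a membrane-anchored surface protein, had 66.0 and 63.7 CPM against 69.8 and 78.1 CPM. It rose by 0.19 ± 0.06 (adjusted p = 0.0207). The adjusted p became 0.0565 without wild-type library 1, 0.133 without wild-type library 2, 0.254 without knockout library 2, 0.123 with no filter, 0.111 in DESeq2, and 0.138 and 0.136 in limma on log2(FPKM + 0.1) and log2(FPKM + 1). Lgals3bp, a secreted glycoprotein that binds galectin 3, had 56.5 and 55.9 CPM in the wild-type libraries and 48.6 and 46.8 CPM in the knockout libraries. It was the called member that fell, by 0.24 ± 0.05 (adjusted p = 0.00358; 0.0659 without knockout library 2). In none of these 3 genes did the genotypes overlap, as was so in 63.5% of all tested genes. Ifi35 had 23.6 and 26.2 CPM against 21.4 and 21.4 CPM, a log2 fold change of -0.22 ± 0.08 (adjusted p = 0.0533), which was 0.0375 without wild-type library 1. Xaf1 had 0.28 ± 0.46 (adjusted p = 0.708), and -0.19 without wild-type library 2, and Rtp4 and Ifi44 had at most 2 counts in any library.

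**Figure D4:**
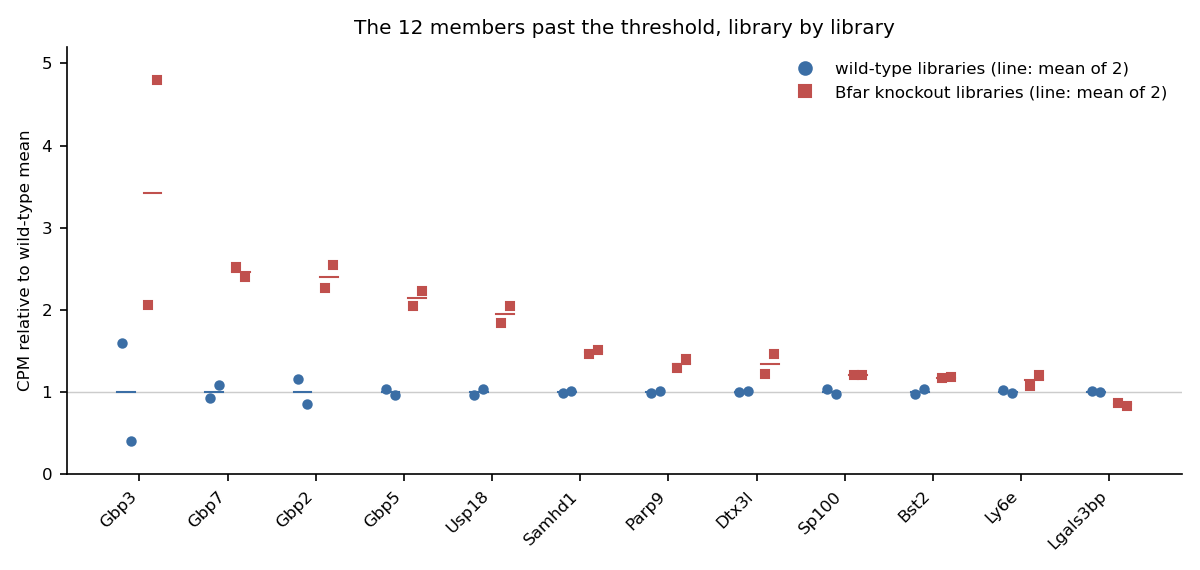
CPM of the 12 called members in each of the 4 libraries, divided by the wild-type mean of the gene, with circles for wild-type and squares for knockout libraries and a line at the mean of each genotype. The genotypes do not overlap in any of the 12 genes, which were picked by their calls in the same libraries. Over all tested genes 63.5% did not overlap. Knockout means run from 3.42 times the wild-type mean in Gbp3 and 2.14 times in Gbp5 to below it in Lgals3bp. Gbp3 passed the filter on low counts only through the knockout libraries.

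How far a member could be judged depended on its counts. The 9 tested members with a mean below 100 counts had standard errors of 0.23 to 0.60 on the log2 scale, and 3 of them rose. Gbp3, which rose, and Iigp1, Ifit1 and Xaf1 are among these 9 only because they passed the filter through the knockout libraries. The 21 with a mean of at least 100 counts had standard errors of 0.04 to 0.14, and 8 rose and 1 fell. Over all tested genes 13.6% were called higher and 13.2% lower. Among the 12 of these 21 that were not called, the largest absolute log2 fold change was 0.22. Among the 9 fainter members the smallest absolute log2 fold change called was 1.26, and the largest not called was 1.15. What change could be detected at such counts was not tested.

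The interferon pathway upstream of these genes was read from lists of ligands, receptors, signalling proteins, inhibitors and sensing adaptors. Over these lists 7 genes rose and 8 fell among 43 tested, which is near the 13.6% and 13.2% called higher and lower over all genes. The counts for the single lists below are read against the same shares. No list was tested as a set, and the lists were chosen with earlier results of these data known. Of 21 interferon genes 4 were listed and 1, Ifng, was tested; Ifnb1 and every Ifna gene were absent from all 4 tables. Ifng encodes interferon gamma and had 10 and 20 counts in the wild-type libraries and 39 and 37 counts in the knockout libraries. Both knockout libraries were higher, and the log2 fold change was 1.38 ± 0.33 (SE, edgeR adjusted p = 0.0059). The call was lost without wild-type library 1 (0.0983), knockout library 1 (0.0747) or knockout library 2 (0.0758), with no filter (0.0527) and in DESeq2 (0.06).

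Of 6 receptor chains, all tested, 3 rose and none fell, against 13.6% called higher and 13.2% lower over all genes. Ifnar1, a chain of the type I receptor, had 105 and 109 CPM in the wild-type libraries and 129 and 136 CPM in the knockout libraries. Ifngr1, the ligand-binding chain of the interferon gamma receptor, had 29.4 and 31.8 CPM against 40.9 and 42.2 CPM. Ifngr2, its signalling chain, had 85.5 and 91.5 CPM against 104 and 112 CPM. The genotypes did not overlap in these 3 genes, as was so in 63.5% of all tested genes. The log2 fold changes were 0.31 ± 0.04 (SE), 0.44 ± 0.06 and 0.29 ± 0.05, with edgeR adjusted p-values of 0.000121, 0.000143 and 0.000666, and all 3 calls held in the 10 alternatives. Ifnar2 had 0.05 ± 0.07 (adjusted p = 0.614).

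Of 12 Janus kinase, STAT and IRF genes 11 were tested, 2 rose and 4 fell. Stat2, a part of the type I complex, had 40.9 and 41.0 CPM in the wild-type libraries and 53.0 and 54.0 CPM in the knockout libraries (log2 fold change 0.38 ± 0.05, edgeR adjusted p = 9.76e-05). Both knockout libraries were higher, by a margin beyond the spread within a genotype. Irf5, a factor of innate signalling, fell from 79.7 and 86.8 CPM to 65.0 and 58.8 CPM (-0.43 ± 0.06, adjusted p = 7.62e-05). Irf8 fell by 0.19 ± 0.04 (adjusted p = 0.00365), with 0.0958 without knockout library 2 and 0.0551 with no filter. Irf3 (-0.21), Jak1 (0.12) and Jak2 (-0.11) had adjusted p-values of 0.0131, 0.0237 and 0.0418. Each of these 3 calls was lost in 6 or more alternatives: without 1 library the adjusted p reached 0.0584, 0.0696 and 0.175 for Irf3 (without wild-type library 1, wild-type library 2 and knockout library 2), 0.113, 0.0989 and 0.196 for Jak1 (the same libraries), and 0.315, 0.191 and 0.135 for Jak2 (without wild-type library 2, knockout library 1 and knockout library 2). Irf7 had 4, 4, 6 and 13 counts and was not tested.

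Of 12 inhibitors of interferon signalling 11 were tested, 1 rose and 2 fell. Socs3, a feedback inhibitor of cytokine receptors, had 80.4 and 80.4 CPM in the wild-type libraries and 109 and 118 CPM in the knockout libraries (log2 fold change 0.49 ± 0.05, SE, edgeR adjusted p = 2.61e-06). Socs1, its relative and the main inhibitor of interferon gamma signalling, had -0.06 ± 0.04 (adjusted p = 0.336). Irf2bp1, a corepressor of IRF2, fell by 0.34 ± 0.06 (adjusted p = 0.000804). Ptpn11, a phosphatase, fell by 0.14 ± 0.04 (adjusted p = 0.0174), with 0.0842 to 0.097 when any 1 library was left out, 0.0953 in DESeq2, and 0.0512 and 0.0515 in limma on log2(FPKM + 0.1) and log2(FPKM + 1). Of 14 sensing adaptors and kinases none rose and 2 fell. Tmem173 (STING), the adaptor of DNA sensing, went from 144 and 146 CPM to 121 and 116 CPM (-0.29 ± 0.04, adjusted p = 0.000138). Traf3 fell by 0.20 ± 0.05 (adjusted p = 0.00481), with 0.0541 without wild-type library 1, 0.093 without knockout library 2, and 0.0533 and 0.0543 in limma on log2(FPKM + 0.1) and log2(FPKM + 1).

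**Figure D5:**
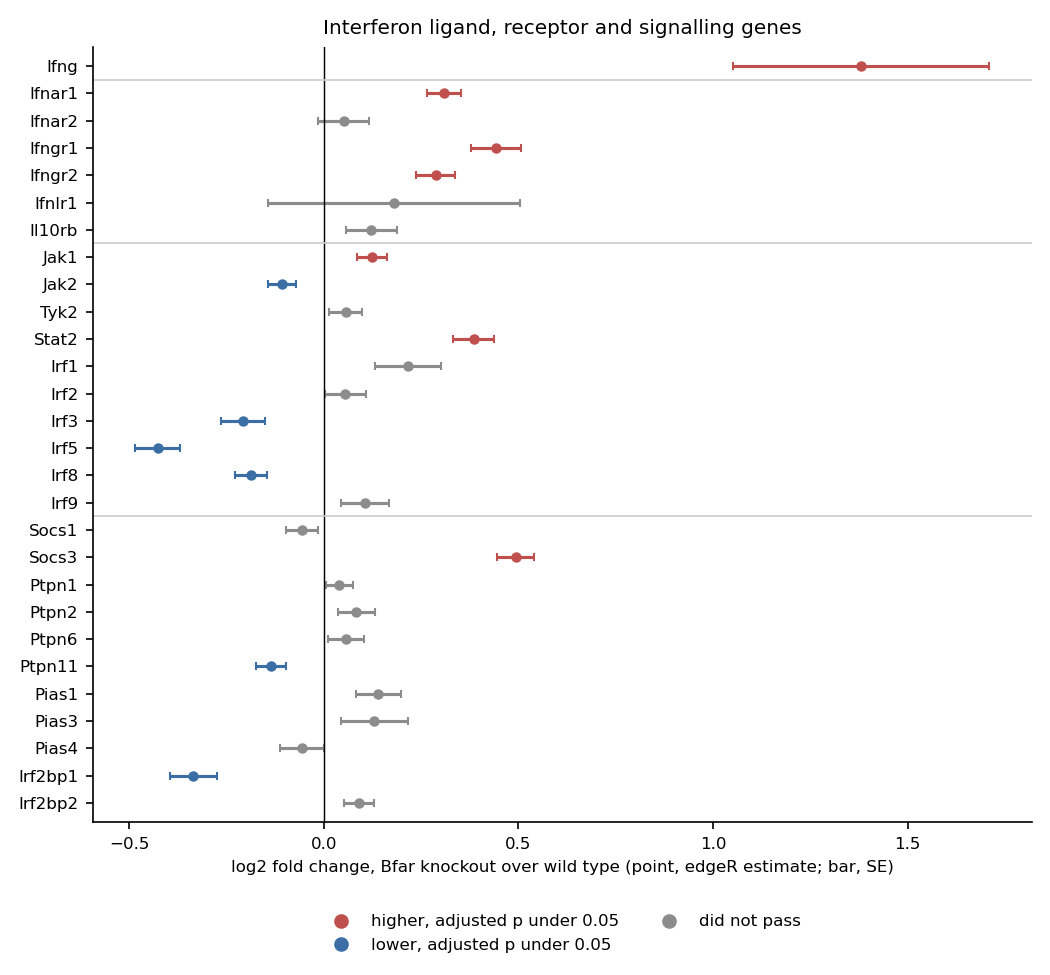
Log2 fold change with its standard error, Bfar knockout over wild type, for tested ligand, receptor, signalling and inhibitor genes of the interferon pathway, from edgeR with 2 libraries per genotype. Ifng at 1.38 and the receptor chains Ifnar1, Ifngr1 and Ifngr2 at 0.29 to 0.44 lie above 0, and Irf5 at -0.43 and Irf2bp1 at -0.34 lie below.

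A wider list of 80 other interferon-induced gene names gave 72 listed genes and 56 tested ones, of which 10 rose and 3 fell, with a median log2 fold change of 0.05. This is a share of calls no larger than the 26.8% over all genes. Ifi27 had 7.42 and 7.64 CPM in the wild-type libraries and 13.3 and 12.4 CPM in the knockout libraries (0.77 ± 0.11, SE, edgeR adjusted p = 0.000115). Tap1, the peptide transporter of antigen presentation, rose by 0.24 ± 0.04 (adjusted p = 0.00051). Slfn2, a regulator of T cell quiescence, fell from 191 and 193 CPM to 158 and 138 CPM (-0.38 ± 0.05, adjusted p = 9.35e-05). Ifi203, a DNA-binding protein, fell by 0.51 ± 0.13 (adjusted p = 0.011), with 0.0975 without wild-type library 2, 0.185 without knockout library 2, 0.0644 in DESeq2, 0.104 with no filter, and 0.114 and 0.1 in limma on log2(FPKM + 0.1) and log2(FPKM + 1). Without wild-type library 2, knockout library 1 or knockout library 2 the list gave 6, 4 and 4 rises, and without knockout library 2 it gave 1 fall.

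Markers of other cells that respond to or make interferons were low beside those of CD4 T cells. The 13 myeloid and dendritic cell markers summed to 9.64 and 10.6 CPM in the wild-type libraries and 11.1 and 10.7 CPM in the knockout libraries, led by Cd68, with Lyz1, Lyz2 and Csf1r in none of the tables and Cd14, Mpeg1 and Clec9a at no more than 3 counts. Xcr1 was the called gene of that list. It had 23.6 and 19.8 counts in the wild-type libraries and 46.4 and 49.97 counts in the knockout libraries (log2 fold change 1.17 ± 0.26, edgeR adjusted p = 0.00352). The other tested markers of the list, Cd68, Itgax and Zbtb46, differed in sign. Their log2 fold changes were 0.19, -0.95 and -0.29 (edgeR adjusted p = 0.389, 0.0726 and 0.41). The 7 natural killer markers, led by Eomes, summed to 4.54 and 3.90 CPM against 3.58 and 3.58 CPM, with Ncr1 and Klra8 in none of the tables. The 7 B cell markers, led by Cd79b, summed to 7.47 and 8.00 CPM against 6.38 and 6.06 CPM, with Ms4a1 and Pax5 at no more than 3 counts. The 5 CD8 and gamma-delta markers, led by Cd8b1, summed to 11.1 and 11.4 CPM against 10.6 and 11.7 CPM. The part of such cells in the values of the members was not tested.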

How the data were processed

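Total RNA from 4 libraries was sequenced on a HiSeq instrument, per the labels' protocols. The submitters' processing notes name Bowtie, RSEM and the build GRCm38 (mm10), without versions. Per the file headers, the deposited tables give a length, an expected count and an FPKM for each gene. The FPKM values are the authors' own, a unit scaled for length and depth. The sources used here do not state the strand setting, the annotation release or any read filter. RSEM shares reads that match several genes by an estimate, so genes with near-identical copies are uncertain.

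A gene missing from a table was set to 0. After rounding of expected counts to whole numbers, genotype was tested two-sided by quasi-likelihood in edgeR 4.0.16 (R 4.3.3). TMM factors were 0.997 to 1.0022. Genes passed filterByExpr with a minimum count of 10 and a minimum total of 15, and p-values were adjusted by Benjamini-Hochberg over all 12677 tested genes, with a threshold of 0.05. As SE the absolute log2 fold change over the square root of F was used. CPM uses TMM-scaled library sizes. The 4 libraries were distinct, with a chi-square per degree of freedom of 2.15 and 2.47 within genotypes and 13.4 to 16.6 across them. Copies were sought as shared 31-base words of GENCODE transcripts (20% or more). DESeq2 1.42.0 and limma 3.58.1 were alternatives. Members and gene lists were chosen with earlier results of these data known. Library values were given for called members, the 9 GTPases and the 3 most abundant members, and up to 6 called genes of each list were named. Gbp4, Gbp9, Tgtp1, Socs1, Ifnar2, Irf7 and the uncalled members with values were added after values were seen. For 1 gene of the pathway lists, included in their counts, values are not reported here. Each SE covers counting error and the fitted spread among the 4 libraries, while floors cover counting error only.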

Additional observations from a re-analysis of the deposited data

How the results depend on the processing

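Of the 12 members called, 8 were called in all 10 alternatives; the exceptions, Gbp3, Bst2, Ly6e and Lgals3bp, are described with their values above. The number of members that rose, 11, was 8 to 9 when a library was left out, and the number that fell, 1, was 0 to 2; it was 2 in limma on log2(FPKM + 0.1) and on log2(FPKM + 1). Over all genes, 1728 rises became 921 in DESeq2, 1051 with no filter, 1151 on log2(FPKM + 0.1) and 812 to 1243 without 1 library; 1670 falls became 786, 877 and, without 1 library, 629 to 1112. Pathway genes that fell numbered 5 in DESeq2, 5 with no filter, 4 on either FPKM scale and 3 to 6 without 1 library. Other interferon-induced genes that rose numbered 3 in DESeq2, 5 with no filter, 6 on log2(FPKM + 1) and 4 to 7 without 1 library; those that fell numbered 1 in DESeq2, 1 with no filter and 1 to 3 without 1 library. The GTPase median of 1.10 was 0.69 on log2(FPKM + 0.1) and 0.17 on log2(FPKM + 1), and 0.20 without Gbp3 and Iigp1, which passed the filter only through the knockout libraries (an alternative chosen after seeing the data); that of the other members was 0.28 with no filter, 0.12 on log2(FPKM + 1) and 0.15 to 0.25 without 1 library. Larger pseudocounts shrink the fold of faint genes by construction; the other causes were not tested. Leaving out members with a copy could not change the counts, as the member with a copy, Ifit3, was not tested. Counting Mx1 with the GTPases gave no other value because Mx1 was not tested.

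Direction changed for 6 uncalled members. Without 1 library the log2 fold change ranged from -0.0762 to 0.042 for Igtp, -0.0795 to 0.0799 for Ifi47, -0.0249 to 0.032 for Ifih1, -0.0104 to 0.35 for Ddx58, -0.0491 to 0.72 for Dhx58 and -0.19 to 0.98 for Xaf1. On log2(FPKM + 0.1) and log2(FPKM + 1) it was -0.0046 and -0.0044 for Ifi47 and -0.0028 and -0.0021 for Ifih1. With replicate number as a block, 12 members rose and 2 fell, 1977 genes rose and 1975 fell, and 5 other interferon-induced genes fell. The deviations of wild-type library 1 and knockout library 1 correlated at 0.0359 over 12677 genes with 2 pairs. So few pairs cannot show whether a replicate number marks a shared mouse, culture or batch, and the labels do not say. With 2 libraries a group, members with few counts had wide errors, and a batch that followed genotype cannot be told apart from it.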

Other observations

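RSEM's length for a gene depends on the isoforms it found, so it shows shifts between transcripts. For 29 members the listed length was constant over the libraries, and for 4 it varied by more than 5% of its mean. Isg20 had 1033.42 and 950.81 bases in the wild-type libraries and 954.78 and 968.68 bases in the knockout libraries. Zbp1 had 1244.63 and 1322.91 bases against 1315.96 and 1331.65 bases. In neither gene did the lengths separate the genotypes. Mx1 and Xaf1, which have few reads, varied by 17.5% and 11.3%.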
